A study of Rattus norvegicus with 8 samples.

Results

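The nuclear genes that encode the subunits of the 5 oxidative phosphorylation complexes were examined in dorsal hippocampus of drug-naive sons of nicotine-taking and of saline-yoked male rats. Members were taken by gene symbol from the deposited analysis table. These were the Ndufa, Ndufb, Ndufc, Ndufs and Ndufv genes of complex I, the Sdh genes of complex II, the Uqcr genes and Cyc1 of complex III, Cox4 to Cox8 of complex IV and the Atp5 genes of complex V. Ndufaf assembly factors were left out, and the probe set with the highest mean signal stood for each gene. The rule found 96 probe sets for 88 of the 21239 genes named on the array, with 41 genes in complex I, 4 in complex II, 9 in complex III, 17 in complex IV and 17 in complex V.

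All animals were young adult, drug-naive, first-generation Sprague-Dawley males. The fathers of 4 of them had self-administered nicotine intravenously at 0.03 mg/kg for 60 days, and the fathers of the other 4 were yoked saline controls (nicotine-sired and saline-sired below). Total RNA came from bilateral 1 mm3 cryostat punches and went onto 1 Affymetrix array per litter, each litter from a different father, so replicates are biological. The comparison asks whether the father's nicotine taking is accompanied by another level of these transcripts in sons that never received the drug. The agent reached the sires only, and a punch mixes the cell types of the tissue, so a lower signal could be fewer cells of a type or less RNA per cell, which cannot be told apart here.

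Complexes I to IV form the respiratory chain of the mitochondrial inner membrane. Electrons from NADH enter at complex I and those from succinate at complex II, pass through complex III and cytochrome c, and reduce oxygen at complex IV, while protons pumped by complexes I, III and IV drive ATP synthesis at complex V. Most subunits are encoded in the nucleus and a minority in mitochondrial DNA, and neurons depend on the pathway for most of their ATP. Promoters of the nuclear genes are known for sites of NRF1, of ETS factors such as GABP, and of YY1.

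RefSeq promoters of the GRCr8 assembly, 250 bases before to 50 bases after the annotated start, were matched for 71 of the 88 members. The NRF1 core, GCGCANGC, was present on either strand in 23 of them (32.4%), against 9.67% of all 27457 promoters of the same length. The ETS core, CCGGAAG, was in 19 (26.8%, against 9.22%), and the YY1 core, AAGATGG, in 17 (23.9%, against 7.30%). At least 1 of these motifs was in 46 members (64.8%), against 22.8% of all promoters, and the median GC content was 56.0% and 52.3%, so members' promoters also differed from the rest in base composition. The promoters of Atp5g3, the member with the smallest p below, and of Ndufa6 and Atp5i, which held all 3 motifs, are shown 5′ to 3′ with every match in capitals. In Atp5i the run of 10 capitals is a pair of overlapping NRF1 core matches, on opposite strands. A match is a description of the letters and not a bound site.
Atp5g3 promoter, chr3:79220615-79220914, minus strand: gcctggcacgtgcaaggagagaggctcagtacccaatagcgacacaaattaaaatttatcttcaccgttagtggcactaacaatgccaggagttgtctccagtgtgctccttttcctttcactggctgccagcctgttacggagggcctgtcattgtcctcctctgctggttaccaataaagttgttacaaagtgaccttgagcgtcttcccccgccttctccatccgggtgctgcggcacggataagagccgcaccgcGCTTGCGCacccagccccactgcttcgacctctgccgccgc
Ndufa6 promoter, chr7:115750268-115750567, minus strand: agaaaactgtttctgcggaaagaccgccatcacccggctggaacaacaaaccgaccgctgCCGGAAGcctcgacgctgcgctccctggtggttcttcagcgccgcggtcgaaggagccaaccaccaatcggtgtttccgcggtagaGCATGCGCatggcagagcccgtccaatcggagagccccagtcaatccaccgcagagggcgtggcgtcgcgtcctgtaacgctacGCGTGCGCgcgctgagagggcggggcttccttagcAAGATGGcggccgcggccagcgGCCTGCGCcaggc
Atp5i promoter, chr14:1464610-1464909, plus strand: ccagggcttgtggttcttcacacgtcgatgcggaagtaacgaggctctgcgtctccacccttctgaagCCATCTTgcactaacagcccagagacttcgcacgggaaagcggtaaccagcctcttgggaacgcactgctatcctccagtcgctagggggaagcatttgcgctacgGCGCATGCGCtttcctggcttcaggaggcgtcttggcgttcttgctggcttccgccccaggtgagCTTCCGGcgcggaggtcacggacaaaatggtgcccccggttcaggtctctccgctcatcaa

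The deposited values are log2 signals, with array medians between 6.25 and 6.35. Of the members, 80 lay above the signal filter (mean over the 8 arrays above 6.30, the median gene-class probe set) and were tested. The 8 that did not were the copies Ndufa7l, Ndufb4l1 and Cox6c-ps1, the tissue isoforms Cox4i2, Cox7b2, Cox8b and Cox8c, and Atp5c1. Symbols are those of the files, and 18 members have a newer name or status in RefSeq, for instance Atp5mc3 for Atp5g3. Across the tissue, markers of CA1 pyramidal cells lay higher in nicotine-sired punches (9 of 9 tested, median difference 1.78) and 10 of 11 markers of dentate granule cells were at lower levels (median -0.61), although 1 and 0 of these passed the adjusted threshold. Among general neuronal markers 11 of 12 were at lower levels (median -0.14, 0 passed), and all 11 oligodendrocyte markers were at higher levels (median 0.46, 0 passed). Microglial and endothelial markers lay higher in all 10 of each list, with medians of 0.24 and 0.27 and with 0 and 1 past the threshold. The CA1 and endothelial calls, of Dcn and Rgs5, were each lost in the fits without nicotine-sired 1 or 3, and without saline-sired 1, 2 or 3, and that of Rgs5 also without saline-sired 4. Of 9 interneuron markers, with a median of 0.0086, 1 passed: the potassium channel gene Kcnc2 fell by 0.61 ± 0.07 log2 units with no overlap of the groups (adjusted p = 0.0196), a call lost without saline-sired 1, 2 or 3. Astrocyte markers had a median of 0.12 with 0 passed, and choroid plexus markers had a mean centred score of 3.69 on nicotine-sired 4 and at most 0.589 on the other arrays. The part of these shifts in the results below was not tested. A model with a CA1 term is given there, but the mean CA1 marker level was higher on every nicotine-sired array than on every saline-sired one. That model therefore cannot separate the CA1 level from the group.

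Transcripts of the oxidative phosphorylation subunits differed little between the groups. None of the 80 tested members passed an adjusted p of 0.05 (limma with Benjamini-Hochberg adjustment over 15161 probe sets; smallest adjusted p = 0.125), against 2.06% of all tested probe sets. At an unadjusted p under 0.05 there were 3 members (3.75%), against 24.0% of all probe sets, and those 3, Atp5g3, Atp5f1 and Cox5a, were lower in nicotine-sired sons. The groups did not overlap in 3 members (3.75%), Atp5g3, Ndufs6 and Ndufab1, against 14.3% of all probe sets. By the adjusted p-values of the authors' deposited table, 1 member, Atp5g3, passed, against 8.63% of the same probe sets, and 8 members (10%) had a deposited p-value under 0.05, against 31.4%.

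Differences of the members were also small in size. The median absolute difference was 0.0516 log2 units over the members and 0.119 over all tested probe sets, or 0.101 over the brighter ones (mean above 8.38). A difference of more than 0.2 log2 units was seen in 3 members (3.75%) and in 30.03% of all probe sets. The 95% interval lay inside a 1.2-fold change in either direction in 54 members (67.5%), against 30.6% of all probe sets, and inside a 1.5-fold change in 79 members (98.75%), against 83.2%. The exception was Ndufa10l1, with an interval from -0.66 to 0.06. The median standard error was 0.077 over the members and 0.093 over all probe sets.

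The signed median over the 80 members was -0.02 log2 units, with 53 lower and 27 higher in nicotine-sired sons, beside a median of 0.02 over all tested probe sets. The sign of the members' median depended on the scaling and on single arrays. It lay below the median of all probe sets in every fit except the one with the CA1 term. With each array centred on its median, 32 members were lower and their median was 0.015, while that of all probe sets was 0.057. Without nicotine-sired 3 the members' median was 0.0022, beside 0.017 over all probe sets. Without saline-sired 4 it was 0.0060, beside 0.028. With the mean CA1 marker level added to the model, an alternative added after seeing the data, the members' median was -0.0064 with 42 members lower. That of all probe sets was then -0.020. Because the CA1 level was higher on every nicotine-sired array than on every saline-sired one, this fit cannot separate it from the group.

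**Figure D1:**
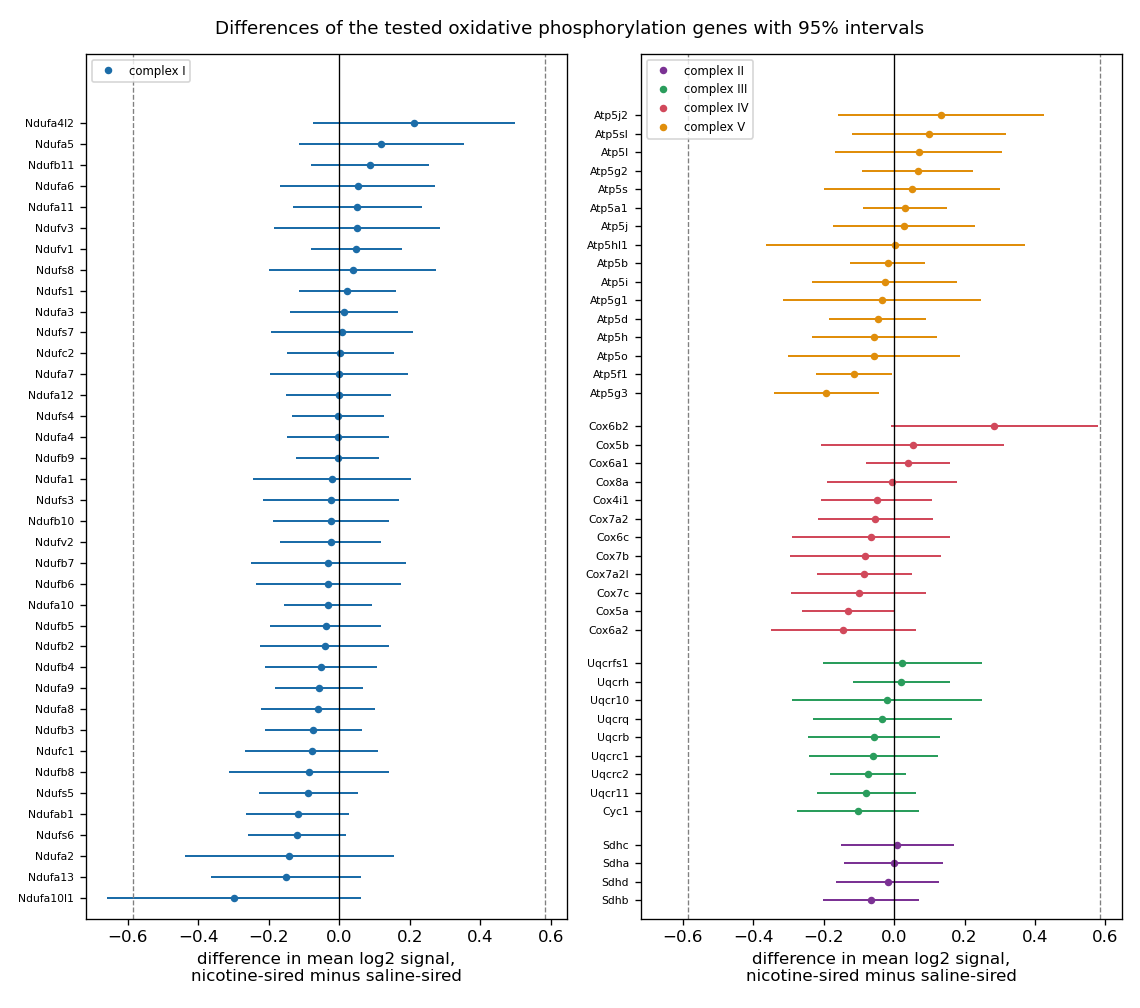
Difference in mean log2 signal, nicotine-sired minus saline-sired, for the tested members except 1 that is not shown, with points for the estimate and lines for the 95% interval of the limma fit (4 arrays per group), grouped by complex. Dashed lines mark 1.5-fold (0.585 log2 units) in either direction; all intervals drawn but that of Ndufa10l1 end inside them.

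Complex I takes electrons from NADH through a catalytic core of flavin and iron-sulfur proteins. Of the core subunits encoded in the nucleus, 7 were tested, 3 lower and 4 higher, with differences from -0.02 (Ndufv2) to 0.05 (Ndufv1) and a median of 0.0069. Ndufs1, the largest iron-sulfur subunit, differed by 0.02 ± 0.06 (SE, 4 arrays per group). None of the 7 had an unadjusted p under 0.05. The 29 accessory subunits that surround the core had a median of -0.03, with 21 lower and 8 higher, and a range from -0.15 (Ndufa13) to 0.12 (Ndufa5).

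Ndufs6, a zinc-binding accessory subunit, read 9.97, 9.89, 9.90 and 9.94 on nicotine-sired arrays 1 to 4 and 10.06, 9.97, 9.97 and 10.16 on saline-sired arrays 1 to 4. All nicotine-sired values lay below all saline-sired ones, the closest pair being nicotine-sired 1 and saline-sired 3, and the difference of -0.12 ± 0.06 had an adjusted p of 0.257 by limma. The gene ID behind this probe set is named Ndufs6-ps1, a pseudogene, in RefSeq, so a near copy may share the signal. Ndufab1, the mitochondrial acyl carrier protein, read 8.42, 8.47, 8.31 and 8.44 in the nicotine-sired group and 8.57, 8.53, 8.48 and 8.54 in the saline-sired group. Again the groups did not overlap, by a margin much smaller than the spread within either group, and the difference of -0.12 ± 0.06 did not pass (adjusted p = 0.286).

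Ndufa10l1, a copy of the accessory subunit gene Ndufa10, had the most negative difference of the members, -0.30 ± 0.16 (adjusted p = 0.28). Its values were 7.72, 7.29, 7.46 and 7.47 on nicotine-sired arrays and 7.34, 7.86, 7.82 and 8.12 on saline-sired arrays, so that saline-sired 1 lay inside the nicotine-sired range. Ndufa10 itself differed by -0.03 ± 0.05. Ndufa13, whose gene ID is also that of a pseudogene in RefSeq, differed by -0.15 ± 0.09 (adjusted p = 0.346) and Ndufa2 by -0.14 ± 0.13 (adjusted p = 0.537). Ndufa5 lay on the other side, at 0.12 ± 0.10 (adjusted p = 0.505). None of these exceeded the spread between arrays by the test used.

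Ndufa4, first described in complex I and since assigned to complex IV, differed by -0.0038 ± 0.06. Its paralog Ndufa4l2, known as a hypoxia-inducible gene, differed by 0.21 ± 0.13 (adjusted p = 0.328), and its nicotine-sired values of 6.51, 6.73, 6.51 and 6.56 fell inside the saline-sired span of 6.13 to 6.70 except on nicotine-sired 2. Counting both with complex IV left the medians of complexes I and IV at -0.02 and -0.05.

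Complex II, succinate dehydrogenase, belongs to the citric acid cycle as well and has no subunit from mitochondrial DNA. Its flavoprotein Sdha differed by -0.0013 ± 0.06, and the membrane anchors Sdhc and Sdhd by 0.0084 ± 0.07 and -0.02 ± 0.06. The iron-sulfur subunit Sdhb had the largest difference of the 4, -0.07 ± 0.06 (adjusted p = 0.530). Sdhb read 9.68, 9.74, 9.67 and 9.85 on nicotine-sired arrays and 9.75, 9.78, 9.83 and 9.83 on saline-sired arrays. Nicotine-sired 4 was the highest of the 8, and the other nicotine-sired values lay below the saline-sired range. All 4 intervals lay inside a 1.2-fold change.

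In complex III, which passes electrons from ubiquinol to cytochrome c, 7 of 9 members lay lower and 2 higher, with a median of -0.06 and 0 members at an unadjusted p under 0.05. Cyc1, the heme protein cytochrome c1, differed by -0.10 ± 0.08 (adjusted p = 0.438), and the Rieske iron-sulfur protein Uqcrfs1 by 0.02 ± 0.10. Uqcrc2, a core protein of the matrix side, had the smallest p of the complex with a difference of -0.07 ± 0.05 (adjusted p = 0.363). Its nicotine-sired values of 11.04, 11.06, 11.12 and 11.15 stood beside 11.11, 11.19, 11.18 and 11.18 in the saline-sired group. Saline-sired 1 fell among the nicotine-sired values. The small subunit Uqcr11 differed by -0.08 ± 0.06 (adjusted p = 0.459).

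Complex IV, cytochrome c oxidase, had 12 tested members, 9 lower and 3 higher, with a median of -0.06. The 9 main isoforms ran from -0.13 to 0.05, and 7 of them lay lower. Cox5a, a subunit on the matrix side, read 11.27, 11.39, 11.28 and 11.45 on nicotine-sired arrays and 11.50, 11.48, 11.41 and 11.53 on saline-sired arrays. Only nicotine-sired 4 reached into the saline-sired range, and the difference was -0.13 ± 0.06 (adjusted p = 0.199 by limma). A second probe set carries the same values on every array, so it adds no evidence, and another shared with a copy differed by -0.13 ± 0.06.

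Several complex IV subunits have tissue isoforms, which were named in pairs. Cox6a1, the widely expressed form, differed by 0.04 ± 0.05 and Cox6a2, the form of heart and skeletal muscle, by -0.14 ± 0.09 (adjusted p = 0.356). Cox6b2, known as a testis isoform, had the largest positive difference of the members, 0.28 ± 0.13 (adjusted p = 0.215). It read 6.72, 6.45, 6.59 and 6.36 on nicotine-sired arrays and 6.58, 6.07, 6.17 and 6.17 on saline-sired arrays, so the groups overlapped through saline-sired 1. The signals of Cox6b2 and Cox6a2, with means of 6.39 and 6.40, lay close to the filter of 6.30. Cox4i1 differed by -0.05 ± 0.07, Cox7a2 by -0.05 ± 0.07, Cox8a by -0.0050 ± 0.08 and Cox7a2l, which takes part in joining complexes III and IV into supercomplexes, by -0.08 ± 0.06. The alternate forms Cox4i2 (mean log2 signal 6.08), Cox8b (5.43) and Cox8c (4.44) lay under the filter and were not tested.

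**Figure D2:**
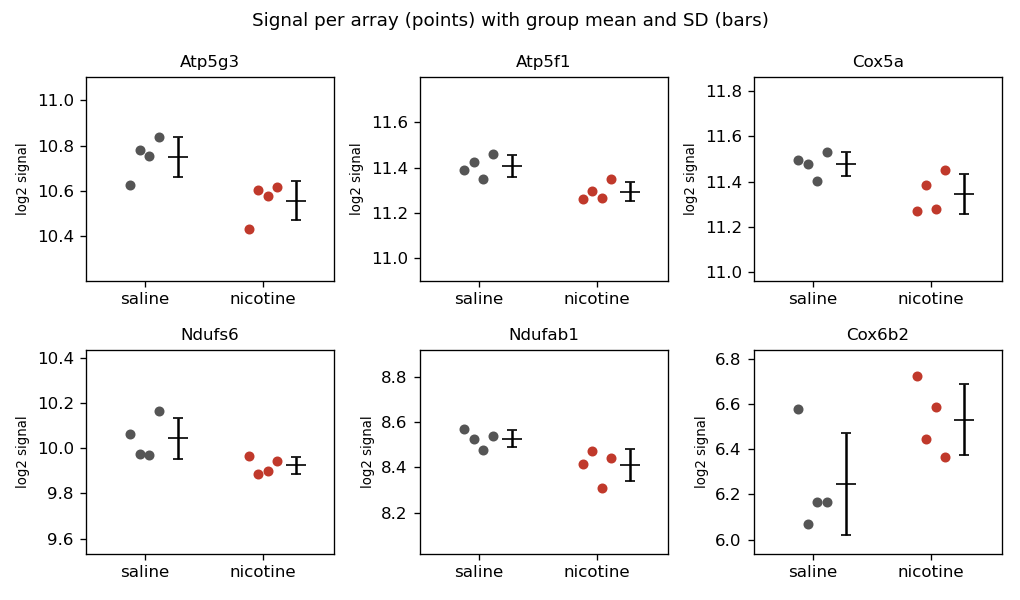
Log2 signal on each array for 6 members, saline-sired in grey and nicotine-sired in red, with the group mean and SD as bars (n = 4 per group) and axes of equal span in every panel. Atp5g3, Ndufs6 and Ndufab1 do not overlap between the groups, Atp5f1 and Cox5a overlap through 1 array each, and Cox6b2 overlaps through saline-sired 1.

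Complex V, the ATP synthase, had 16 tested members, 8 lower and 8 higher, with a median of -0.0072. The F1 part, which includes the catalytic head, showed differences near 0. They were 0.03 ± 0.05 for Atp5a1 (the alpha subunit), -0.02 ± 0.05 for Atp5b (beta) and -0.05 ± 0.06 for Atp5d (delta). The probe set named for Atp5c1 alone (gamma) lay under the filter at a mean of 5.07. A brighter probe set annotated to Atp5c1 together with Taf3 had a mean of 8.86 and a difference of -0.04 ± 0.06 (adjusted p = 0.695), and was not used as a member.

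Atp5g3 is 1 of 3 genes whose products mature into the same c subunit, the unit of the rotating ring in the membrane. It read 10.43, 10.60, 10.58 and 10.62 on nicotine-sired arrays and 10.63, 10.78, 10.75 and 10.84 on saline-sired arrays. The highest nicotine-sired value and the lowest saline-sired one, on saline-sired 1, lay next to each other without overlap. The difference was -0.19 ± 0.07, a 1.14-fold lower signal, with a 95% interval from -0.34 to -0.05 (adjusted p = 0.125 by limma). In the authors' deposited table its adjusted p was 0.0265, the call named above. Over the alternatives run here its adjusted p went from 0.0617 to 0.514. The other c-subunit genes differed by -0.03 ± 0.12 (Atp5g1) and 0.07 ± 0.07 (Atp5g2), and whether the 3 genes differ from each other was not tested.

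Of the stalk that holds the head still, 4 members were tested and 3 lay lower. Atp5f1, subunit b of this stalk, read 11.26, 11.30, 11.26 and 11.35 on nicotine-sired arrays and 11.39, 11.43, 11.35 and 11.46 on saline-sired arrays. Nicotine-sired 4 and saline-sired 3 met at nearly the same value, and the difference was -0.11 ± 0.05 (adjusted p = 0.184 by limma). The stalk members Atp5h, Atp5o and Atp5j differed by -0.06 ± 0.08, -0.06 ± 0.11 and 0.03 ± 0.09.

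The membrane subunits Atp5j2 (f), Atp5l (g) and Atp5i (e) differed by 0.13 ± 0.13, 0.07 ± 0.10 and -0.03 ± 0.09. The remaining Atp5 names are no structural subunits by their present RefSeq symbols or are copies: Atp5sl (now Dmac2, a complex I assembly factor) differed by 0.10 ± 0.10, Atp5s (now Dmac2l) by 0.05 ± 0.11 and the copy Atp5hl1 by 0.0040 ± 0.16. None of these 6 had an unadjusted p under 0.05.

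For genes with several probe sets the choice of the brightest mattered little for the calls. The second Ndufb3 probe set differed by 0.0074 ± 0.07 where the one used differed by -0.07 ± 0.06, and the second Ndufs5 probe set by -0.05 ± 0.07 beside -0.09 ± 0.06. A second Atp5g3 probe set lay under the filter, at a mean of 4.58, and was not tested. Its group means differed by 0.0035, where the one used differed by -0.19. With the mean over the probe sets of each gene, 0 members passed and 2 had an unadjusted p under 0.05.

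The members varied together from array to array, within both groups. The mean of the 80 centred log2 signals was 0.111 on saline-sired 4, the highest array, and -0.081 and -0.080 on nicotine-sired 3 and saline-sired 1, the lowest. The other arrays lay between -0.021 on nicotine-sired 1 and 0.030 on nicotine-sired 2, with nicotine-sired 4 at 0.028, saline-sired 3 at 0.016 and saline-sired 2 at -0.0034. The range over arrays of 0.193 was thus far larger than the difference between the groups, whose means were -0.011 (SD 0.053, n = 4) and 0.011 (SD 0.079, n = 4) for nicotine-sired and saline-sired. The median of all tested probe sets ran from -0.043 to 0.023 over the same arrays, which is not a like measure to the mean of a gene list. Mean centred scores of other lists also moved between arrays. Glycolysis genes ran from -0.093 to 0.128 and neuron markers from -0.176 to 0.138. Assembly factors ran from -0.082 to 0.069 and mitochondrial carriers from -0.067 to 0.035.

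Single members followed this pattern. Saline-sired 4 held the highest value of 40 of the 80 members, against 11.3% of all probe sets, and was above the gene's own mean in 68 of 80. Nicotine-sired 3 held the lowest value of 25 members (31.25%), against 7.71% of all probe sets, and the highest value of 0. Saline-sired 1 held the lowest value of 21 members (26.25%), but it was also the lowest array for 22.8% of all probe sets. The mean centred signal of complexes I, III, IV and V was between 0.110 and 0.118 on saline-sired 4, and complex II stood at 0.048 there, with its highest value of 0.10 on nicotine-sired 4.

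**Figure D3:**
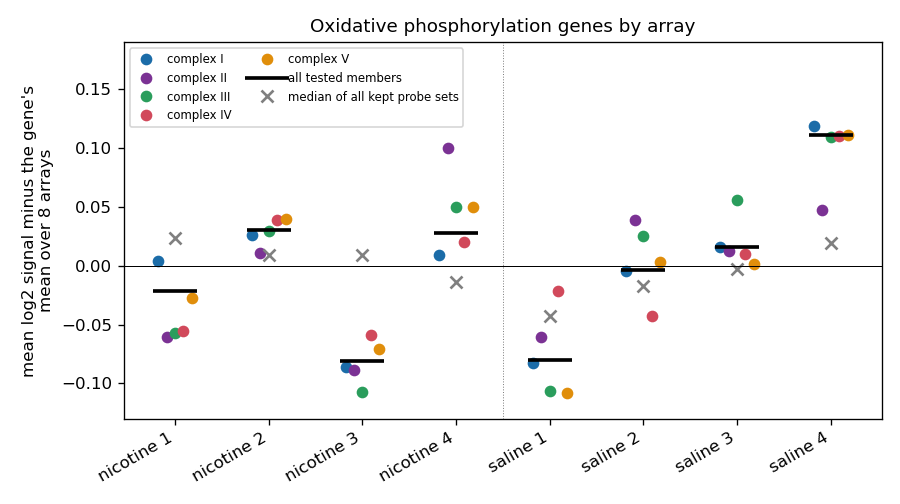
Mean log2 signal of the tested members on each array after subtracting each gene's mean over the 8 arrays, for each complex (coloured points) and for all 80 members (black bars), with the median of all 15161 kept probe sets as crosses. Saline-sired 4 is highest (0.111), nicotine-sired 3 and saline-sired 1 are lowest (-0.081 and -0.080), and the groups overlap.

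Across the 8 arrays the mean pairwise Pearson correlation between members was 0.314, against 0.0152 between all tested probe sets and 0.0308 between the brighter ones, given as a description over arrays that share the same RNA for every gene. With group means removed it was 0.336. A positive correlation with the mean of the other members was seen in 76 of 80, with a median of 0.640, and the first principal component held 41.0% of the members' variance. Uqcrq and Ndufb8, small subunits of complexes III and I, followed the mean of the others most closely, at 0.945 and 0.924. The 4 members with a negative value were Cox6b2, Atp5sl, Ndufa3 and Cox6a2, of which Cox6b2 was at -0.65. Members with at least 1 of the promoter motifs and members without any had median group differences of -0.02 (43 tested) and -0.03 (23 tested).

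Scores of the cell type lists on the 3 outlying arrays are given beside this pattern. The mean centred neuron marker score was 0.040 on saline-sired 4, 0.037 on saline-sired 1 and -0.134 on nicotine-sired 3. The CA1 score was -0.064, -1.09 and 1.203 on the same arrays. The oligodendrocyte score was -0.393 on saline-sired 4, -0.354 on saline-sired 1 and 0.264 on nicotine-sired 3. In the same order, the interneuron score was 0.198 (its highest array), -0.125 (its lowest) and -0.050. Astrocyte scores were 0.037, -0.106 and 0.044, and endothelial ones 0.085, -0.271 and 0.193. Microglial scores were -0.013, -0.227 and 0.187, dentate granule ones 0.334, 0.643 and -0.029, and choroid plexus ones -0.944, 0.589 and -0.848. The part of cell makeup in the pattern was not tested.

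Other genes of the pathway gave a similar picture between the groups. Of the subunits from mitochondrial DNA, 11 were measured, 7 lower and 4 higher, with a median of -0.0069 and 0 past the threshold. ND6, the complex I subunit encoded on the light strand, differed by -0.17 ± 0.07 (adjusted p = 0.169), and CYTB, cytochrome b of complex III, by 0.03 ± 0.04. The other 10 had signals between 12.39 and 13.58, at the upper end of the scale.

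Among 42 tested assembly factors 22 lay lower and 20 higher, with a median of -0.0097. Of these, 0 passed the adjusted threshold, against 2.06% of all probe sets. An unadjusted p under 0.05 by limma was seen in 3 (7.14%), against 24.0% of all probe sets. Sdhaf4 (LOC685888 in the files), an assembly factor of complex II, differed by -0.33 ± 0.09 (adjusted p = 0.0811) and Cox20, which helps Cox2 mature, by 0.19 ± 0.07 (adjusted p = 0.134). The list of electron carriers, in which the coenzyme Q genes, the electron transfer flavoproteins and the glycerol phosphate dehydrogenase Gpd2 were tested and cytochrome c was not, had 7 of 14 lower, a median of 0.00067 and 0 past the threshold. Etfb, a flavoprotein subunit, differed by -0.16 ± 0.06 (adjusted p = 0.162) and Coq2, of coenzyme Q synthesis, by -0.14 ± 0.08 (adjusted p = 0.298).

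Of 15 regulators of mitochondrial biogenesis 6 lay lower and 9 higher, with a median of 0.02 and 0 past the threshold. Ppargc1a, the coactivator that drives expression of respiratory genes together with NRF1, read 9.505, 9.79, 9.63 and 9.55 in nicotine-sired sons and 9.29, 9.48, 9.28 and 9.51 in saline-sired sons. The ranges met at nicotine-sired 1 and saline-sired 4, and the difference of 0.23 ± 0.09 did not pass (adjusted p = 0.152). Polg, the mitochondrial DNA polymerase, differed by 0.15 ± 0.09 (adjusted p = 0.308).

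The citric acid cycle and pyruvate dehydrogenase genes, which feed the chain with NADH and succinate, were at lower levels in nicotine-sired sons for 14 of 19, with a list median of -0.07. Among them 0 passed the adjusted threshold and 4 had an unadjusted p under 0.05 (21.1%, beside the 24.0% of all probe sets). Pdhx, which binds the E3 component of pyruvate dehydrogenase, differed by -0.24 ± 0.08 (adjusted p = 0.111) and Sucla2, of succinyl-CoA ligase, by -0.16 ± 0.06 (adjusted p = 0.135). Of the mitochondrial carriers and porins 6 of 12 were at lower levels, the list median was -0.0046 and 0 passed. Slc25a13, an aspartate-glutamate carrier, differed by 0.40 ± 0.15 (adjusted p = 0.145) and the porin Vdac3 by -0.09 ± 0.05 (adjusted p = 0.272).

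**Figure D4:**
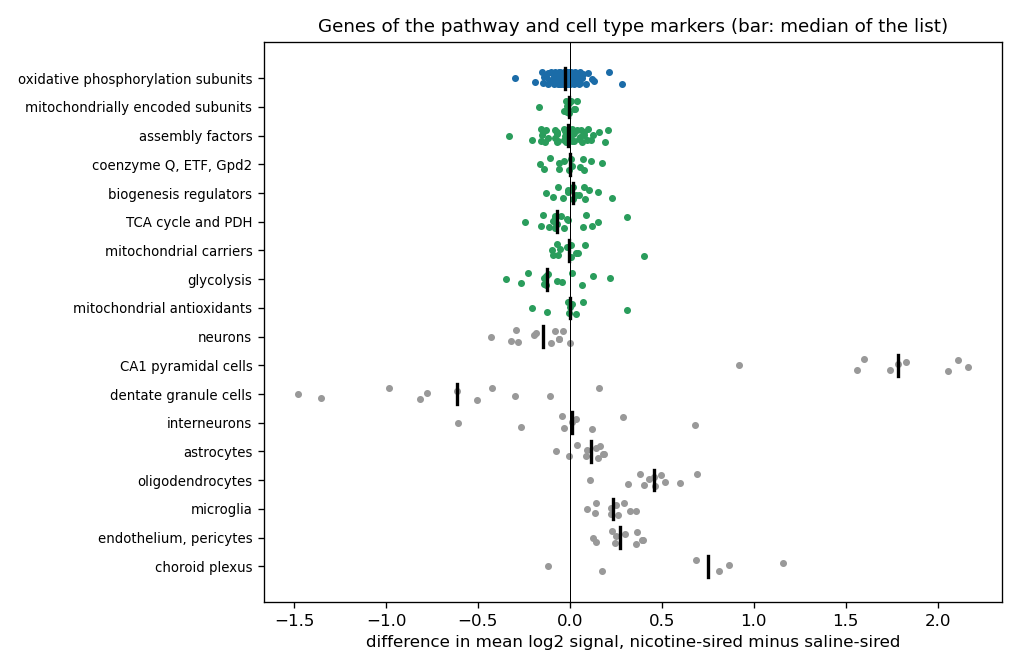
Difference in mean log2 signal, nicotine-sired minus saline-sired, of each tested gene (points) in the oxidative phosphorylation subunits (blue), the related pathway lists (green) and the cell type marker lists (grey), with the list median as a bar. The subunits sit between -0.30 and 0.28, around a median of -0.02, while the medians of the CA1 and dentate granule markers are 1.78 and -0.61.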

How the data were processed

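Total RNA of 8 punches was measured, 4 per group, with 1 array per litter. The deposited tables hold log2 signals per probe set, per the file headers, and both deposited tables agree exactly (largest difference 0). The submitters' processing notes name MAS5; for the summary and normalization of the log2 values, the method is not given in the sources. The authors' deposited p-values and step-up adjusted p-values are read from the analysis table, per the file headers, with no model stated there. Of 36685 probe sets, 6362 control-class ones were left out, and of the 30323 others the 15161 with a mean above 6.30 were tested, since no detection calls were used. Groups were compared with limma 3.58.1 in R 4.3.3 (lmFit, eBayes with trend, two-sided, no pseudocount) with Benjamini-Hochberg adjustment over all tested probe sets. Data were simulated with independent noise and with 200 of 15161 probe sets changed. There the fit recovered 10% of changes of 0.25 log2 units, 56.1% of those of 0.5 and 92.1% of those of 1. These rates are over probe sets of all kinds. Members had a smaller median SD within groups (0.105 against 0.131), and a rate for members alone was not measured. Small changes of single members may thus be missed. Errors after differences are the standard errors of the limma fit, and the number of arrays limits the precision.

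Members and lists were chosen with earlier results of these data known. Named members were those past the threshold, the 3 smallest p per complex, the 5 largest and 5 smallest differences, members whose groups do not overlap, the 6 with the largest SD over arrays, tissue isoforms and the Sdh genes; per pathway list, genes past the threshold and the 2 smallest p. Others named for their role or as probe set examples were added after their values were seen. Litter numbers were checked for pairing: same-numbered arrays had correlations of -0.14, 0.18, -0.05 and -0.17. Only for litter 2 was the same-numbered array the closest. The numbers were not used to pair the samples in the main fit, although so few arrays cannot exclude a pairing. The values of 1 member are not reported here. Alternatives covered the filter, normalization, variance model, array weights, litter block, probe set choice and each array left out.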

Additional observations from a re-analysis of the deposited data

Results flagged for a closer look

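Among the 4 arrays of a group, 8 values lay far from the other 3, with a gap to the nearest that took up most of the range. On nicotine-sired 2, Ndufs1 of the complex I core (10.76 log2 units) and the complex IV genes Cox6a1 (12.25) and Cox7a2l (10.33) were high. On nicotine-sired 4, Atp5i, subunit e of the ATP synthase (9.72), and Sdhd, a membrane anchor of complex II (9.84), were high. Choroid plexus markers were also high on that array (mean centred score 3.69), and their part in these values was not tested. On nicotine-sired 3 Atp5j2, subunit f of the ATP synthase (8.94), was low. On saline-sired 4, the array on which most members were above their mean, Cox7c (9.65) and the stalk subunit Atp5j (9.32) were high. In all, 166 groups were examined, those of 82 members and the array mean of the members, and chance alone flags about 1 in 20, or 8.3.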

How the results depend on the processing

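The count of 0 members past the adjusted threshold was the same under every limma alternative run, with 1 to 5 members at an unadjusted p under 0.05, while the authors' deposited adjusted p-values called 1. The count over all probe sets, 313, was much less stable: 155 without a filter, 181 with the stricter one, 1201 with array weights, 0 with the litter number as a replicate block (3326 at an unadjusted p under 0.05 by limma) and 0 with the CA1 covariate (1433). Leaving out 1 array gave 0 to 737 calls: 80, 672, 98 and 737 without nicotine-sired 1 to 4, and 0, 8, 0 and 70 without saline-sired 1 to 4. Where the count was 0, unadjusted p-values under 0.05 numbered 2724 and 2932. The block changed no member's call. The median of the members went from -0.059 to 0.0060 with 1 array left out. Of the list medians, that of the biogenesis regulators was 0.081 with the stricter filter, and that of the choroid plexus markers went from -0.32, without nicotine-sired 4, to 1.19; the stricter filter left no choroid plexus gene. Of 440 values of named members under alternatives, 27 had the opposite direction and 0 passed the threshold. All 27 were in the 6 members that follow, and directions of named members with the CA1 term are not given here. With quantile normalization Atp5hl1 was -0.021, Ndufa4 0.0093 and Sdha 0.0027. With median centring Cox8a was 0.035, Ndufa4 0.036, Sdha 0.038 and Sdhd 0.021, and with array weights Sdhc was -0.038. With 1 array left out Atp5hl1 ran from -0.14 to 0.11, Ndufa4 from -0.043 to 0.045, Sdha from -0.033 to 0.040, Sdhc from -0.045 to 0.044, Sdhd from -0.055 to 0.013 and Cox8a from -0.068 to 0.049. The causes were not tested.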

Other observations

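Genes of glycolysis, the cytosolic route to pyruvate, were at lower levels in nicotine-sired sons for 10 of 14 (median difference -0.12 log2 units). Of these genes 1 passed the adjusted threshold (limma, over all tested probe sets) and 6 (42.9%) had an unadjusted p under 0.05, beside 2.06% and 24.0% of all tested probe sets. The one that passed, Slc2a3, the main glucose transporter of neurons, read 9.93, 10.005, 9.92 and 9.84 on nicotine-sired arrays and 10.28, 10.31, 10.29 and 10.22 on saline-sired arrays. Its groups were clearly apart, and it fell by 0.35 ± 0.06 log2 units (adjusted p = 0.0275). The call was kept without nicotine-sired 2 or 4 and lost without any 1 of the other 6 arrays. Adjusted p-values by limma ran from 0.0226 to 0.0994 over these fits and differences from -0.38 to -0.32. The call was also lost with the CA1 term in the model (adjusted p = 0.433), at a difference of the same size, -0.35. That term cannot be separated from the group. Aldoa, the aldolase of muscle and brain, differed by -0.13 ± 0.04 (adjusted p = 0.114). Slc2a1, the transporter of endothelium and glia, lay on the other side at 0.22 ± 0.07 (adjusted p = 0.119). Neuron markers lay lower and endothelial markers higher in the same punches, with list medians of -0.14 and 0.27, and their part in these values was not tested.

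Of the mitochondrial antioxidant genes 4 of 9 were at lower levels, the list median was 0.0013 and 0 passed. Sod2, the manganese superoxide dismutase, differed by -0.21 ± 0.07 (adjusted p = 0.111), with all nicotine-sired values (10.40, 10.49, 10.46 and 10.61) below all saline-sired values (10.62, 10.77, 10.78 and 10.61), the closest pair being nicotine-sired 4 and saline-sired 4. Nnt, which makes NADPH across the inner membrane, differed by 0.31 ± 0.11 (adjusted p = 0.128).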
